A study of Mus musculus with 6 samples.

Results

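Day 28 of culture was compared with day 21 in BCR-ABL-transformed mouse pro-B leukaemia cells of 3 Ikaros genotypes. All 6 libraries of the series entered the comparison, and 11379 of the 22098 gene symbols were tested because they reached 1 RPKM (reads scaled to transcript length and library size) in at least 2 libraries. The cells came from whole bone marrow of C57BL/6 mice, transduced at day 0 with a retrovirus carrying the p185 form of BCR-ABL and a YFP reporter, a treatment that every group shares. The marrow was wild type or carried Ikaros_ZnF1-/- or Ikaros_ZnF4-/-, named ZnF1 mutant and ZnF4 mutant here. Poly(A) RNA of each genotype was sequenced once at day 21 and once at day 28, so day 28 has 3 libraries, day 21 has 3 libraries, and each genotype gives 1 difference. The labels do not say whether the 2 libraries of a genotype were taken from the same culture, nor how many mice gave marrow. A p-value here therefore measures only how far the difference between the days repeated over the 3 genotypes. In bulk RNA, fewer cells of a type and less RNA per cell cannot be told apart.

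BCR-ABL is a constantly active tyrosine kinase that signals through STAT5, RAS and PI3K and lets early B-lineage cells grow without their usual cytokine. Ikaros, encoded by Ikzf1, is a zinc finger DNA-binding protein that restrains proliferation and promotes maturation at the pre-B stage. Primary marrow transduced with BCR-ABL starts as a mixture of cells and is taken over by transformed B-lineage cells as it is passaged. Genes of amino acid supply, kinase signalling, cell death, mitochondria and the B lineage were grouped into lists and read beside the markers of other blood and stromal cells.

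The labelled cell type was checked against its markers. All 16 listed pro-B identity genes were tested and none was at 0 in a library, with a summed level between 3851.8 and 4252.1 RPKM. Of 12 T cell markers, 5 were tested (Cd247, Cd4, Cd5, Lck and Tcf7), of which Lck was the most abundant at 11.7 to 46.7 RPKM. Cd3e and Cd8a of that list were at 0 in all 6 libraries, and none of the 10 erythroid markers was tested. Macrophage markers were present in each library and are described below. Between 10401 and 11233 symbols reached 1 RPKM in a library, and read depth is unknown. Ikzf1 was at 89.2, 108.0 and 186.0 RPKM at day 21 in wild type, ZnF1 mutant and ZnF4 mutant, and at 78.7, 91.4 and 165.9 RPKM at day 28. A value over the whole transcript does not check a deletion of single exons.

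No gene passed the test between the days. The limma fit with genotype as a block called 0 genes higher and 0 genes lower at day 28 (0.0% of tested genes in either direction, smallest adjusted p = 0.154). At an unadjusted p below 0.05 it counted 1185 genes higher and 446 lower at day 28. This split depended on the scaling: it was 831 to 809 after quantile scaling and 801 to 884 after median ratio scaling. Without regard to a test, 22.7% of genes were higher at day 28 in all 3 genotypes and 12.6% were lower in all 3. Only 27 genes were at least 1.5-fold higher in all 3 genotypes (0.237%) and 1 gene, Fxyd6, was at least 1.5-fold lower in all 3 (0.00879%).

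The 2 days of a genotype were close. Between 95.8% and 97.0% of genes lay within 1.5-fold, and the median difference on the log2(RPKM + 1) scale, which is used for all differences below, was 0.00, 0.05 and 0.02 in wild type, ZnF1 mutant and ZnF4 mutant. In wild type 49.3% of genes were higher and 45.6% lower at day 28. In the ZnF1 mutant 59.7% were higher and 36.3% lower. In the ZnF4 mutant 51.9% were higher and 42.5% lower. Genes at least 2-fold higher numbered 30, 111 and 65 in wild type, ZnF1 mutant and ZnF4 mutant, and genes at least 2-fold lower numbered 23, 6 and 23. These counts depended on the pseudocount: with 0.1 in place of 1, wild type had 95 higher and 178 lower, which turns its split, the ZnF1 mutant 225 and 19, and the ZnF4 mutant 171 and 98. Only 2 genes, Scand1 and Romo1, were 2-fold higher in all 3 genotypes.

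Scand1, which encodes a SCAN domain protein, differed most. It was at 3.0, 1.9 and 1.7 RPKM at day 21 in wild type, ZnF1 mutant and ZnF4 mutant, and at 10.9, 19.6 and 10.5 RPKM at day 28. All 3 day 28 libraries were above all 3 day 21 libraries, with a mean difference of 2.16 ± 0.24 (moderated SE, 3 genotypes, limma adjusted p = 0.154). Each SE given is the moderated SE of limma, which draws on the spread of all genes. It is not the plain SE of the 3 differences of a gene. Romo1, a small protein of the mitochondrial inner membrane that modulates reactive oxygen species, was at 15.1, 9.3 and 11.9 RPKM at day 21 and at 32.2, 32.1 and 35.2 RPKM at day 28, again without overlap. Rplp1, a protein of the ribosomal stalk, was at 167.1, 125.6 and 129.9 RPKM at day 21 and at 291.3, 277.9 and 427.7 RPKM at day 28. Reads of Rplp1 can be shared with processed copies of the gene, so its level is uncertain. Rmrp, the RNA of the RNase MRP enzyme and not polyadenylated, was at 18.9, 16.5 and 13.5 RPKM at day 21 and at 31.1, 50.3 and 34.8 RPKM at day 28. The other leading genes with a described function were Zfp771, Fam78b, Brp44 and Mir363, with mean differences between 0.82 and 1.01.

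**Figure D1:**
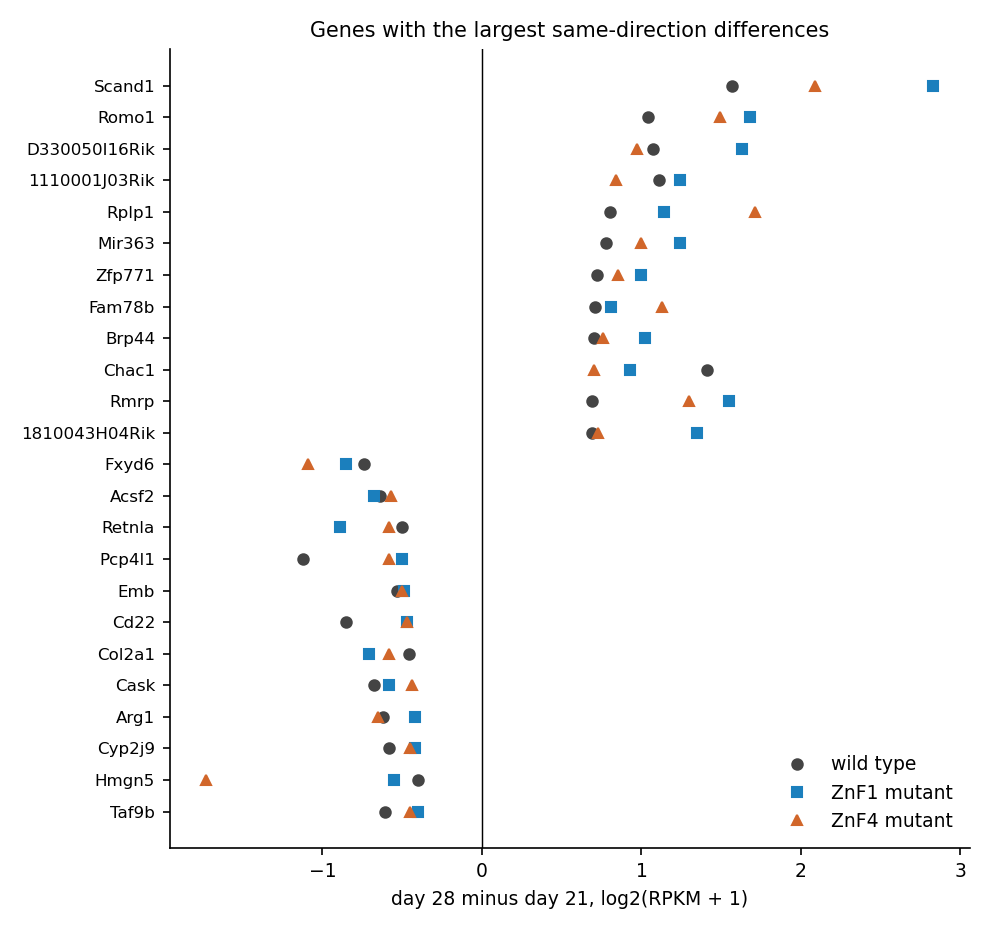
Difference between day 28 and day 21 on the log2(RPKM + 1) scale (x axis) for the 12 genes per direction whose smallest difference over the 3 genotypes was largest; each point is 1 genotype. The 3 points of Scand1 lie between 1.57 and 2.83, and those of Fxyd6 between -1.09 and -0.74.

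Genes lower at day 28 in all 3 genotypes differed by less. Fxyd6, a regulator of the sodium pump, was at 2.5, 13.2 and 30.8 RPKM at day 21 in wild type, ZnF1 mutant and ZnF4 mutant, and at 1.1, 6.9 and 13.9 RPKM at day 28. Each genotype was lower by close to the same amount, although the levels of the genotypes lie far apart and the groups overlap (mean -0.89 ± 0.09 SE, limma adjusted p = 0.154). Acsf2, an acyl-CoA synthetase, was at 12.1, 14.1 and 11.0 RPKM at day 21 and at 7.4, 8.4 and 7.1 RPKM at day 28, without overlap. Cd22, an inhibitory co-receptor of B cells, was at 5.3, 4.0 and 10.1 RPKM at day 21 and at 2.5, 2.6 and 7.0 RPKM at day 28. Arg1 and Retnla, products of alternatively activated macrophages, were among these genes, with mean differences of -0.56 and -0.66. Retnla was at 0.7 RPKM or less in wild type and the ZnF4 mutant. Of the 22 tested macrophage markers described below, 2 were lower in all 3 genotypes, beside 12.6% of all tested genes. Wild type had all 22 lower and the ZnF1 mutant 14, whereas the ZnF4 mutant had 18 higher. Emb, Pcp4l1, Col2a1, Cask, Cyp2j9, Hmgn5 and Taf9b were the others, with mean differences between -0.48 and -0.89.

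Genes of the amino acid response were higher at day 28 at a similar median in each genotype. ATF4 is a transcription factor made when amino acids run short or translation initiation is restrained; its targets make, import and recycle amino acids. Of 23 tested genes of this list, 21 were higher in all 3 genotypes and 1, Vldlr, was lower in all 3, beside 22.7% and 12.6% of all tested genes. The median difference was 0.42, 0.35 and 0.36 in wild type, ZnF1 mutant and ZnF4 mutant. After the part that follows transcript length and GC was removed, these medians were 0.39, 0.27 and 0.29. No single gene passed the limma test.

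Atf4 itself was at 169.2, 131.2 and 271.5 RPKM at day 21 in wild type, ZnF1 mutant and ZnF4 mutant, and at 234.5, 171.4 and 399.9 RPKM at day 28. The order of the genotypes was the same on both days, and the mean difference was 0.47 ± 0.07 (SE, limma adjusted p = 0.173). Atf5, a related factor, was at 7.8, 8.6 and 20.6 RPKM at day 21 and at 12.8, 15.3 and 33.8 RPKM at day 28, with a mean difference of 0.70 ± 0.06 (SE, adjusted p = 0.154). Eif4ebp1, which restrains cap-dependent translation, was at 21.3, 17.8 and 39.5 RPKM at day 21 and at 30.1, 24.3 and 59.7 RPKM at day 28. Both were higher by a near equal amount in each genotype.

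Among the enzymes, Asns, which makes asparagine, was at 36.3, 19.8 and 125.4 RPKM at day 21 and at 74.9, 36.3 and 157.6 RPKM at day 28. The difference was 1.02 in wild type and 0.33 in the ZnF4 mutant, which had the highest level on both days. Psph, the last enzyme of serine synthesis, was at 18.9, 13.4 and 28.3 RPKM at day 21 and at 25.4, 18.1 and 36.5 RPKM at day 28. Shmt2, the mitochondrial enzyme that takes a carbon unit from serine, was at 128.5, 96.3 and 194.3 RPKM at day 21 and at 153.9, 107.9 and 263.5 RPKM at day 28. Chac1, which degrades glutathione, was at 1.3, 1.0 and 9.5 RPKM at day 21 and at 5.1, 2.8 and 16.0 RPKM at day 28. Psat1, an enzyme of serine synthesis, and Slc1a5, a glutamine carrier, had mean differences of 0.07 each.

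**Figure D2:**
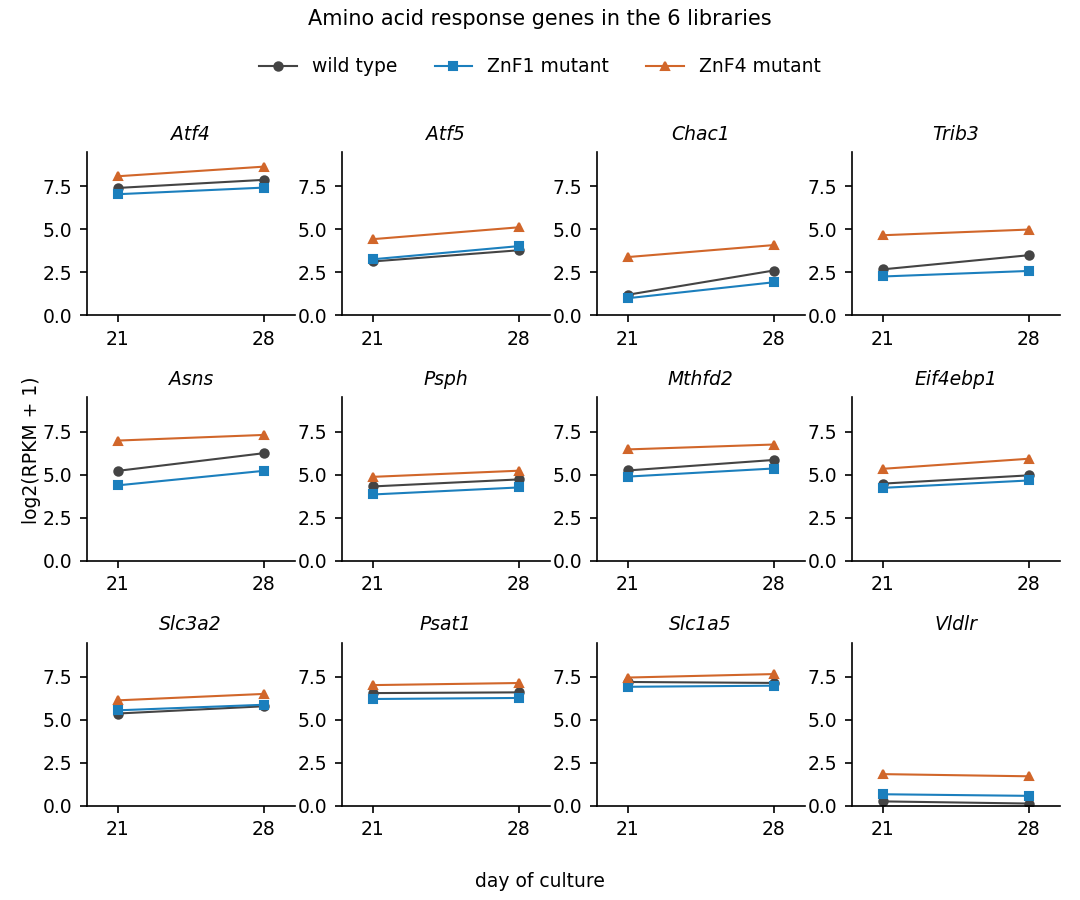
Level on the log2(RPKM + 1) scale (y axis) at day 21 and day 28 (x axis) for 12 genes of the amino acid response list; each point is 1 library and lines join the libraries of a genotype. Most lines slope upward in all 3 genotypes, those of Psat1 and Slc1a5 are nearly flat, and Vldlr is lower at day 28.

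Aminoacyl-tRNA synthetases, which charge tRNAs with amino acids, were higher in all 3 genotypes for 14 of 19 tested genes and lower in all 3 for 0 of 19. The shares of all tested genes were 22.7% and 12.6%. The synthetase medians were 0.24, 0.18 and 0.17 in wild type, ZnF1 mutant and ZnF4 mutant, and 0.20, 0.09 and 0.10 after quantile scaling. Yars was at 33, 24.8 and 51.8 RPKM at day 21 and at 45.6, 31.5 and 58.9 RPKM at day 28. Mars was at 46.7, 32.9 and 62.0 RPKM at day 21 and at 56.9, 39.2 and 75.9 RPKM at day 28. Kars, among the most abundant members, differed by 0.12 or less in each genotype.

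The promoter windows of these genes are shown because most members of both lists were higher at day 28. A RefSeq window (GRCm38.p6) ran from 250 bases before to 50 bases after a start. It was matched by symbol, or else by RefSeq transcript, for 18 of the 23 tested amino acid response genes and 12 of the 19 tested synthetase genes. The letters TGATGNAA, a form of the element that ATF4 dimers bind, were searched on both strands. They were found in 5 of 18 amino acid response genes (27.8%: Trib3, Asns, Chac1, Pycr1 and Vldlr) and 5 of 12 synthetase genes (41.7%: Aars, Gars, Iars, Tars and Yars), against 4.51% of 27025 genes. Vldlr holds the letters and was lower at day 28. The genes were listed by known function, so a share above that of all genes was likely beforehand. It does not bear on the difference between the days. Each window below is written 5′ to 3′ on the strand of its gene, with the match, on either strand, in capitals. The Asns window is chr6:7693160-7693459 (minus strand), the Chac1 window chr2:119350992-119351291 (plus strand), the Trib3 window chr2:152344011-152344310 (minus strand) and the Yars window chr4:129189653-129189952 (plus strand).
Asns: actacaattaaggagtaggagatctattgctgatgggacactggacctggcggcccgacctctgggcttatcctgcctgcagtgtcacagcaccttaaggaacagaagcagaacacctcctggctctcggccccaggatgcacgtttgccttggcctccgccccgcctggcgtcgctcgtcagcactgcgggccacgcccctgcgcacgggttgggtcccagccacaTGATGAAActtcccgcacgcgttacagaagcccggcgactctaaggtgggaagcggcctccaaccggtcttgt
Chac1: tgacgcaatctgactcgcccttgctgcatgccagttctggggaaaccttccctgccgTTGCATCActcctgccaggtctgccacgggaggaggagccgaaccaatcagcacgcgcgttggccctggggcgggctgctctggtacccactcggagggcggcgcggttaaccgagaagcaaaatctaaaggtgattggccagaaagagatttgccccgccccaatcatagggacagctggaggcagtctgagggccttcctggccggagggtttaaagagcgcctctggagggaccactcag
Trib3: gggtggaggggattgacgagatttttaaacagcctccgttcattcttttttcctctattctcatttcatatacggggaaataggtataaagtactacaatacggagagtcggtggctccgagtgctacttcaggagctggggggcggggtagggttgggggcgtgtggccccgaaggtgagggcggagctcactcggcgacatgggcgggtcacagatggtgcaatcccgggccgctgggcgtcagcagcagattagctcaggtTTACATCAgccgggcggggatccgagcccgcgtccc
Yars: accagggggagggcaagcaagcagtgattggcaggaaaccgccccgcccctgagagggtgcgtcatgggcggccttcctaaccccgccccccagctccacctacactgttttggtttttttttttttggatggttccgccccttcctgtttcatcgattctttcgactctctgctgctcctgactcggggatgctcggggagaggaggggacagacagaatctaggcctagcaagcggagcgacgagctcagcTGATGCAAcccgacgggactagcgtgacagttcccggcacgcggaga

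Genes of the STAT5 and BCR-ABL response and of cell death were also mostly higher at day 28. Over all tested genes, 22.7% were higher in all 3 genotypes and 12.6% lower in all 3. Of 16 tested STAT5 and BCR-ABL response genes, 11 were higher in all 3 genotypes and 0 lower in all 3, with medians of 0.16, 0.16 and 0.19, or 0.13, 0.08 and 0.16 after median ratio scaling. Ccnd2, the cyclin D that drives entry into S phase, was at 42.9, 59.0 and 24.2 RPKM at day 21 in wild type, ZnF1 mutant and ZnF4 mutant, and at 73.3, 95.2 and 62.2 RPKM at day 28 (mean 0.92 ± 0.14 SE, limma adjusted p = 0.173). Socs1 and Socs3, feedback inhibitors of cytokine signalling, had mean differences of 0.54 and 0.40. Cish, a further inhibitor of this kind, differed by 0.22 on average, and Pim1, a survival kinase, by 0.25. Myc was at 172.7, 141.8 and 206.2 RPKM at day 21 and at 175.9, 145.2 and 302.4 RPKM at day 28, a difference of 0.55 in the ZnF4 mutant and 0.03 in each of the others.

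Cdkn2a, which encodes the INK4A and ARF tumour suppressors, was at 25.2, 20.3 and 10.4 RPKM at day 21 and at 40.2, 41.7 and 17.3 RPKM at day 28 (mean 0.78 ± 0.09 SE, limma adjusted p = 0.154). The transcripts of the INK4A and ARF proteins share exons and were not told apart. Of 20 tested p53 targets, 10 were higher in all 3 genotypes and 1 lower in all 3, beside 22.7% and 12.6% of all tested genes. Bbc3, which encodes the death protein PUMA, was at 6.0, 5.5 and 4.1 RPKM at day 21 and at 10.1, 10.4 and 6.9 RPKM at day 28, without overlap between the days. Bax was at 91.2, 90.4 and 78.0 RPKM at day 21 and at 120.3, 125.6 and 94.4 RPKM at day 28. Cdkn1a, the p53 target that stops the cell cycle, differed by -0.08, 0.28 and 0.16. Of 13 tested BCL2 family genes, which set the threshold for mitochondrial cell death, 9 were higher in all 3 genotypes and 0 lower in all 3. The lists overlap: Bax, Bbc3 and Pmaip1 are also counted as p53 targets, and Bcl2l1 as a STAT5 and BCR-ABL response gene.

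Early response genes were less even. Jund, a partner in the AP-1 dimer, was at 31.8, 35.1 and 18.2 RPKM at day 21 and at 49.5, 68.4 and 36.1 RPKM at day 28 (mean 0.84 ± 0.08 SE, limma adjusted p = 0.154). Junb was higher by 0.33, 0.83 and 1.13 in wild type, ZnF1 mutant and ZnF4 mutant. Over the 20 tested early response genes, 5 were higher in all 3 genotypes and 1 lower in all 3, and the median of 0.08 in the ZnF1 mutant was -0.01 after quantile scaling. Of 14 ERK feedback genes, 4 were higher in all 3 (28.6%, also near the share of all genes) and 0 lower in all 3. In the ZnF1 mutant 6 were higher and 7 lower. The medians were 0.23, -0.03 and 0.26, or 0.21, -0.15 and 0.22 after quantile scaling.

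**Figure D3:**
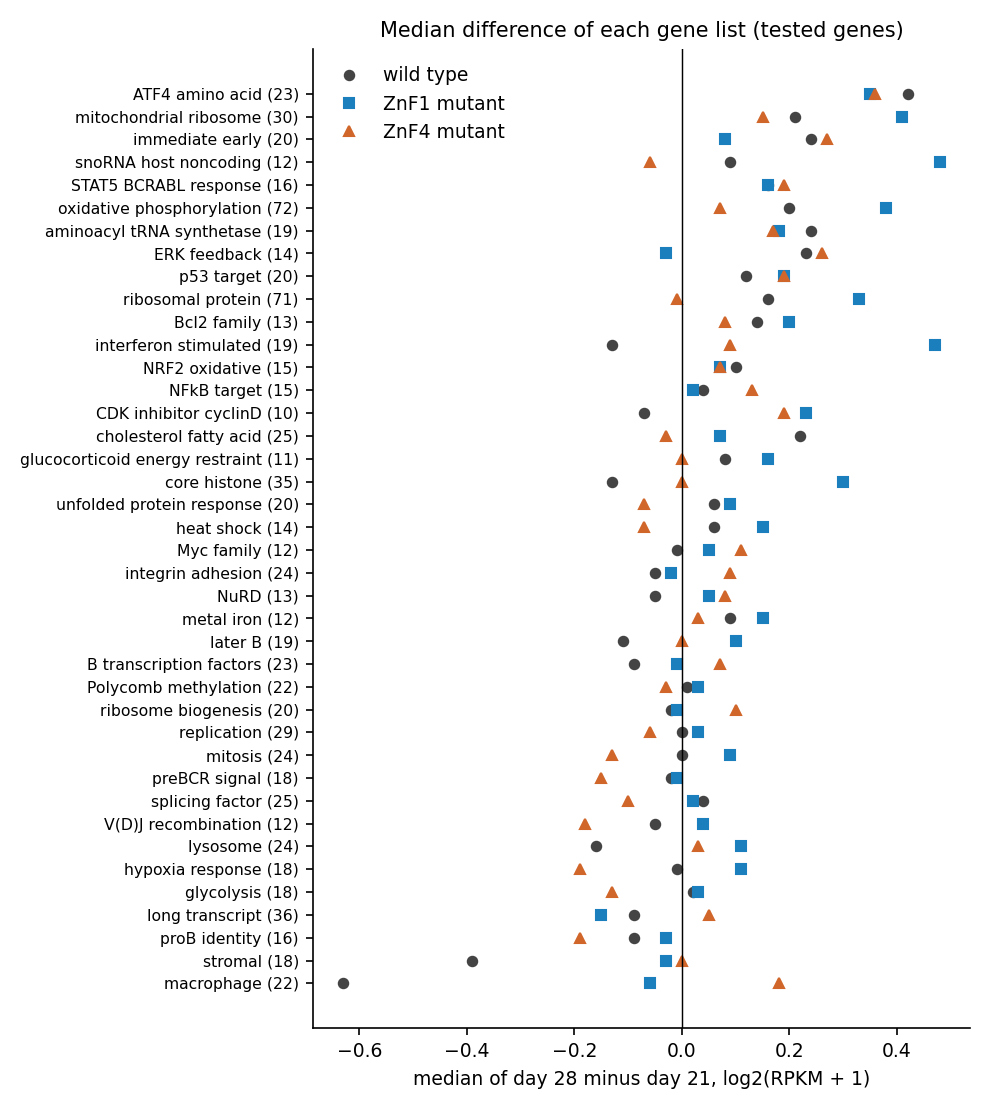
Median difference between day 28 and day 21 on the log2(RPKM + 1) scale (x axis) for each list with at least 10 tested genes (number in brackets); each point is 1 genotype. The amino acid response list has its 3 points between 0.35 and 0.42, whereas the macrophage list spreads from -0.63 to 0.18.

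Short transcripts had higher median differences than long ones in each genotype, and the longest were lower at the median in wild type and the ZnF1 mutant. Across genes, Spearman's rho between the difference and the deposited transcript length was -0.258, -0.391 and -0.12 in wild type, ZnF1 mutant and ZnF4 mutant. In the ZnF1 mutant, the median difference was 0.27 for 1056 genes under 1000 bases and -0.05 for 1730 genes of 5000 bases or more. In wild type these medians were 0.12 and -0.06, and in the ZnF4 mutant 0.06 and 0.00. In the ZnF4 mutant the difference instead followed GC content (rho 0.403), with a median of -0.07 for transcripts under 44% GC and 0.145 for those of 56% GC or more. Its length rho was -0.037 after GC correction. The rho for GC was -0.021 in wild type and 0.123 in the ZnF1 mutant. These values are a description, and genes are not independent replicates.

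**Figure D4:**
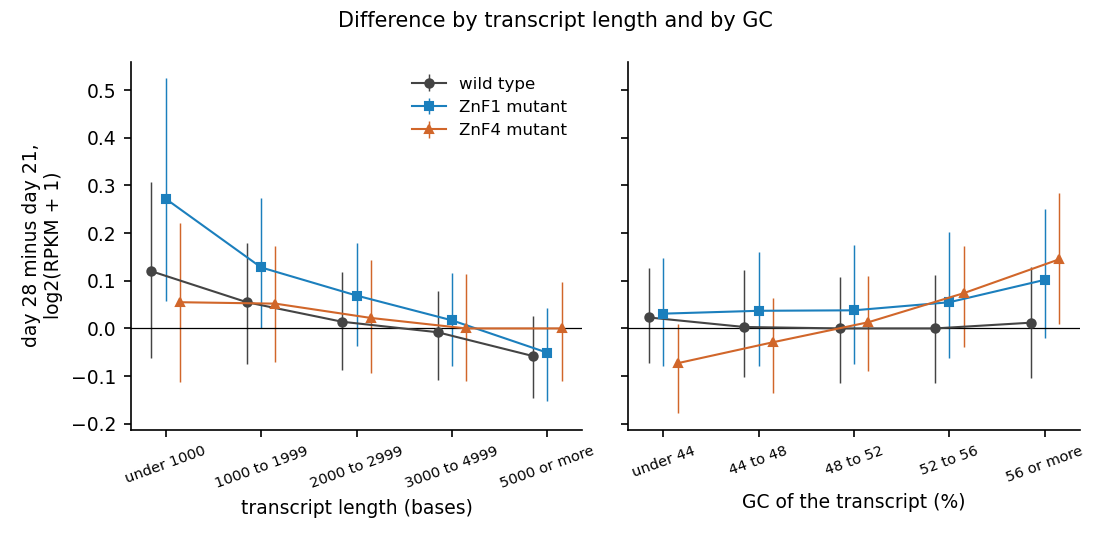
Median difference between day 28 and day 21 on the log2(RPKM + 1) scale (y axis) in bins of transcript length in bases (left) and of GC percent (right), by genotype; bars span the lower to the upper quartile of genes. The ZnF1 mutant falls from 0.27 to -0.05 along length, and the ZnF4 mutant climbs from -0.07 to 0.145 along GC.

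Mitochondrial and ribosomal genes are mostly short (median lengths of 684 bases for oxidative phosphorylation and 689 bases for ribosomal proteins), and the part of length in their difference was not tested. Oxidative phosphorylation genes had medians of 0.20, 0.38 and 0.07 in wild type, ZnF1 mutant and ZnF4 mutant. Of 72, 41 were higher in all 3 genotypes and 4 lower in all 3, beside 22.7% and 12.6% of all tested genes. After the part that follows length and GC was removed, the medians were 0.08, 0.13 and 0.00. Atp5g3, a subunit of the ATP synthase ring, was at 241.4, 143.6 and 183.5 RPKM at day 21 and at 348.4, 254.7 and 283.3 RPKM at day 28. Atp5d and Ndufb6 had mean differences of 0.58 and 0.62. Atp5b, the catalytic subunit, differed by -0.03, 0.03 and 0.18.

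Mitochondrial ribosome genes had medians of 0.21, 0.41 and 0.15. Of 30, 16 were higher in all 3 genotypes and 0 lower in all 3, beside 22.7% and 12.6% of all tested genes. After the same correction the medians were 0.12, 0.25 and 0.08. Mrpl52 was at 41.6, 30.6 and 22.1 RPKM at day 21 and at 64.0, 77.2 and 52 RPKM at day 28. Cytosolic ribosomal protein genes had medians of 0.16, 0.33 and -0.01, with 30 of 71 higher in all 3 and 7 lower in all 3, and after the correction 0.06, 0.09 and -0.04. The 36 tested genes of the long transcript list had medians of -0.09, -0.15 and 0.05. In wild type 4 were higher and 31 lower, in the ZnF1 mutant 3 and 31, but in the ZnF4 mutant 21 and 15. None was higher in all 3 genotypes (0 of 36) and 12 were lower in all 3. Dst, a giant cytoskeletal linker, was at 3.2, 17.1 and 7.7 RPKM at day 21 and at 1.7, 10.4 and 5.9 RPKM at day 28. Ahnak differed by -0.33, -0.07 and -0.16. After the correction for length and GC the long transcript medians were 0.00, 0.00 and -0.01. The correction subtracts the trend along length and the list holds long transcripts, so medians near 0 were likely beforehand.

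Pro-B identity genes had medians below 0. Of 16 such genes, 2 were higher in all 3 genotypes and 7 lower in all 3, beside 22.7% and 12.6% of all tested genes. The medians were -0.09, -0.03 and -0.19, or -0.15, -0.16 and -0.22 after quantile scaling. Rag2, a subunit of the V(D)J recombinase, was at 9.2, 19 and 20.6 RPKM at day 21 in wild type, ZnF1 mutant and ZnF4 mutant, and at 7.5, 13.1 and 15 RPKM at day 28 (mean -0.40 ± 0.07 SE, limma adjusted p = 0.183). Rag1, its partner, was at 11.6, 54.7 and 49.6 RPKM at day 21 and at 9.2, 23.9 and 44.3 RPKM at day 28, and only the ZnF1 mutant was more than 2-fold lower. Igll1, the surrogate light chain, was at 810.6, 756.8 and 1124.8 RPKM at day 21 and at 663.0, 704.6 and 1005.9 RPKM at day 28. Vpreb1, its partner, differed by 0.25, 0.50 and -0.20.

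Of the factors that set B-cell identity, Pax5 differed by -0.24, -0.04 and -0.23 and Ebf1 by -0.09, -0.14 and 0.10. Ikzf1 was lower by 0.18, 0.24 and 0.16 (mean -0.19 ± 0.06 SE, limma adjusted p = 0.263), and Ikzf3, its relative, differed by 0.09, 0.20 and -0.03. Il7r, the receptor of interleukin 7, was higher by 0.13, 0.22 and 0.05. Kit, a progenitor receptor, was at 0.1, 2.6 and 17.4 RPKM at day 21 and at 0.0, 1.8 and 12.5 RPKM at day 28. Cd74, which escorts MHC class II, was at 90.1, 480.9 and 17.4 RPKM at day 21 and at 124.6, 396.8 and 21.6 RPKM at day 28.

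Cell cycle genes were split between both directions. Of 29 replication genes, 5 were higher in all 3 genotypes and 8 lower in all 3. Of 24 mitosis genes, 3 were higher and 5 lower in all 3. The shares of all tested genes were 22.7% and 12.6%. Mki67, the proliferation marker, was at 248.9, 163.0 and 294.4 RPKM at day 21 and at 215.6, 137.6 and 241.0 RPKM at day 28, lower in each genotype by 0.21 to 0.29. Cdt1, which licenses replication origins, was higher by 0.28, 0.32 and 0.38, and Cenpf was lower by 0.23, 0.21 and 0.45.

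Markers of macrophages differed between the genotypes. In wild type all 22 tested macrophage genes were lower at day 28, with a median of -0.63. In the ZnF1 mutant 8 were higher and 14 lower (median -0.06), and in the ZnF4 mutant 18 were higher and 4 lower (median 0.18). After GC and length correction the medians were -0.69, -0.11 and 0.10. The summed level of the list was 1169.6 RPKM at day 21 and 737.1 at day 28 in wild type. It was 4736.5 and then 5162.6 RPKM for the ZnF1 mutant, although 14 of its 22 tested genes were lower. Abundant genes weigh most in this sum: there Lgals3 was at 383.3 and then 627.9 RPKM, Gpnmb at 496.7 and 709.6, and Ctsd at 773.3 and 921.3. The ZnF4 mutant had 554.8 and 619.8 RPKM. Lyz2, the macrophage lysozyme, was at 263.8, 927.8 and 104.6 RPKM at day 21 and at 166.7, 893.5 and 145.6 RPKM at day 28. Lysosome genes had medians of -0.16, 0.11 and 0.03, or -0.17, -0.02 and -0.01 after quantile scaling.

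Stromal markers were lower in wild type for 16 of 18 genes (median -0.39), beside 45.6% of all tested genes. The ZnF1 and ZnF4 mutants had medians of -0.03 and 0.00 (-0.13 and -0.01 after quantile scaling). Col5a1, Fbn1, Pdgfrb and Vcam1 reached 1 RPKM only in the ZnF1 mutant and were tested through its libraries alone. The wild type count rests partly on such genes. Col6a1 was at 4.9, 28.2 and 2.5 RPKM at day 21 and at 1.3, 16.8 and 1.7 RPKM at day 28. Col1a1, a collagen of fibroblasts, was at 1.8, 8.3 and 0.8 RPKM at day 21 and at 1.9, 8.2 and 1.0 RPKM at day 28. The part of these cells in the other differences of a genotype was not tested.

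Interferon-stimulated genes were higher for all 19 tested members in the ZnF1 mutant (median 0.47, or 0.29 after GC and length correction), where 59.7% of all tested genes were higher. In wild type 5 were higher and 12 lower (median -0.13), and in the ZnF4 mutant 11 were higher and 7 lower (median 0.09). Most levels were low. Ifit1, Ifit3, Oas2, Oas3, Oasl2 and Rsad2 reached 1 RPKM only in the ZnF1 mutant and were tested through its 2 libraries alone. The count in the ZnF1 mutant and its contrast with the other genotypes rest partly on these genes. Isg15, a ubiquitin-like antiviral protein, was at 0.9, 1.9 and 0.7 RPKM at day 21 and at 1.0, 3.2 and 1.1 RPKM at day 28. Irf7 was at 1.3, 3.3 and 0.5 RPKM at day 21 and at 1.1, 6.0 and 1.0 RPKM at day 28. A pair of GAAA repeats with 2 bases between them, the core that interferon-activated factors bind, was searched on both strands in the same RefSeq windows. It was found for 9 of 14 list genes with a window (64.3%), against 3.99% of all genes. The list was drawn up as interferon-stimulated genes, so a high share was likely beforehand. It does not bear on the difference between the days. The Isg15 window (chr4:156200769-156201068, minus strand) holds 3 overlapping matches, in capitals.
Isg15: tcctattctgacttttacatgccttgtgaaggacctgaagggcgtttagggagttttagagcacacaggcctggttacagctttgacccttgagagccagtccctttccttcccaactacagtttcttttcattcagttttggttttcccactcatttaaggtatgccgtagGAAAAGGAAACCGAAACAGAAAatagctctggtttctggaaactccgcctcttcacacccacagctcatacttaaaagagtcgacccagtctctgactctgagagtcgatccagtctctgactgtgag

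**Figure D5:**
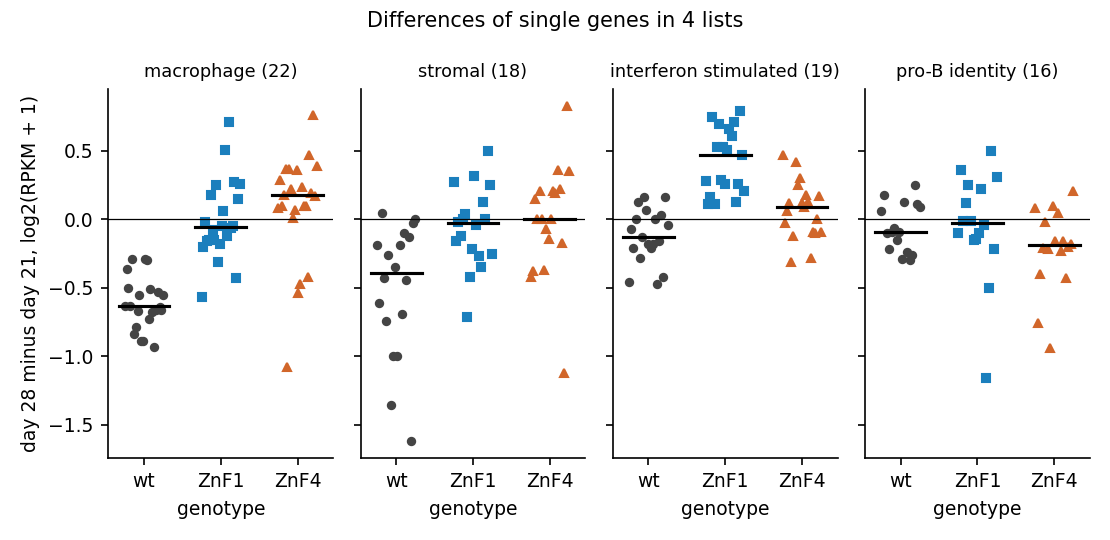
Difference between day 28 and day 21 on the log2(RPKM + 1) scale (y axis) for single tested genes of 4 lists, by genotype; black bars are medians. All macrophage points of wild type lie below 0 and all interferon points of the ZnF1 mutant lie above 0.

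Some genes with the largest difference in a genotype differed in others too, and some were flat or went the other way. Of genes at least 2-fold higher, 13 were shared by wild type and ZnF1 mutant. Wild type and ZnF4 mutant shared 4, and the ZnF1 and ZnF4 mutants shared 13. Of genes at least 2-fold lower, 0, 4 and 0 were shared in the same order. H19, an imprinted noncoding RNA, was at 12.2, 23.7 and 3062.2 RPKM at day 21 in wild type, ZnF1 mutant and ZnF4 mutant, and at 1.3, 36.0 and 2008.3 RPKM at day 28. Mir675 lies within H19, so their reads cannot be told apart. Cd69, an activation marker, was at 19.2, 23.0 and 27.0 RPKM at day 21 and at 53.6, 20.1 and 49.0 RPKM at day 28. Ccl8, a chemokine, was at 38.6 RPKM at day 21 and 11.3 RPKM at day 28 in the ZnF1 mutant and below 2 RPKM elsewhere. In the ZnF4 mutant Ifitm1, an interferon-induced membrane protein, was at 1.8 RPKM at day 21 and 27.7 RPKM at day 28, beside differences of 0.18 and 0.03 in wild type and the ZnF1 mutant. Rtn4rl2 was higher by 0.92, 0.54 and 3.01 in wild type, ZnF1 mutant and ZnF4 mutant. Hmgn5, a nucleosome-binding protein, differed by -0.40, -0.55 and -1.73. Myl4 was higher by 0.39, 2.17 and 0.95. The other genes with the largest differences in a genotype were Prss12, H2-Aa and Olfm1, lower in the ZnF1 mutant, Aes, Arpc5 and Ptpn14, lower in wild type, and in the ZnF4 mutant Armcx4, higher, and Snord82, Cyp27a1 and Ptms, lower. With 1 library per genotype and day these differences have no replicate, and whether they differ between genotypes was not tested.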

How the data were processed

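Poly(A) RNA of 6 libraries was measured, 1 for each of 3 genotypes at day 21 and day 28. The authors deposited RPKM values for 26531 transcript rows, rounded to 1 decimal. The build mm9 and the tools bedtools and TopHat are named, per the submitters' processing notes, without versions. No strand step is named in the labels' protocols, so a gene and an antisense gene cannot be told apart. Read depth is unknown, so values carry no counting interval. The row with the highest mean stood for each of 22098 symbols. Names turned into dates (39 rows, 16 tested symbols) were kept as they stand and not named. Genes with at least 1 RPKM in at least 2 libraries (11379) were transformed as log2(RPKM + 1), which understates differences of low genes. Genotype and day were fitted with limma 3.58.1 under R 4.3.3, with a mean-variance trend and Benjamini-Hochberg adjustment over all tested genes at 0.05. SE values are the moderated ones of this fit. The genotype, given in the labels, pairs the libraries. The changes of 2 genotypes correlated across genes at 0.433, 0.249 and 0.226, which are not replicates. An exact sign-flip permutation test over 3 pairs cannot go below p = 0.25 and was not used. The steps were tested on simulated data.

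The 49 gene lists (1066 entries, 1055 matched, 880 distinct genes tested), the members and the tests were chosen with earlier results of these data known. Named genes are, per direction, the 12 with the largest smallest difference over the genotypes; per list, up to 4 with the smallest p and 2 with the highest level; per genotype and direction, the 5 with the largest difference at 5 RPKM or more; and a fixed set. Symbols without a described function were passed over. Trib3, Asns, Chac1, Pycr1, Vldlr, Psat1, Slc1a5, the synthetases named for a promoter match and the genes shown in the plot of amino acid response genes were chosen after their values were seen. GC content came from GENCODE M21 transcripts (98.3% of tested genes) and promoter windows from RefSeq on GRCm38.p6, another build than that of the values. The corrections for length and GC subtracted a lowess curve with a span of 0.3 in each genotype. Alternatives covered the pseudocount, filters, scaling, the row choice, the block, the trend, the corrections and leaving out each genotype.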

Additional observations from a re-analysis of the deposited data

Results flagged for a closer look

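In 7 cases the median difference of a list with at least 10 tested genes had opposite signs in 2 genotypes and lay 0.3 or more apart on the log2(RPKM + 1) scale. The macrophage list was 0.81 higher in the ZnF4 mutant than in wild type. The core histone list was 0.43 higher, the list of CDK inhibitors and D cyclins 0.30 higher and the interferon-stimulated list 0.60 higher in the ZnF1 mutant than in wild type. In the ZnF4 mutant against the ZnF1 mutant the difference was -0.34 for ribosomal proteins, -0.30 for the hypoxia response and -0.54 for snoRNA hosts and noncoding RNAs. After GC and length correction the differences were 0.79, 0.32, 0.26, 0.43, -0.13, -0.24 and -0.23 in the same order, so only the macrophage, core histone and interferon-stimulated lists stayed 0.3 or more apart. Some interferon-stimulated genes were tested only through their levels in the ZnF1 mutant. Several core histone genes lay near 1 RPKM in these poly(A) libraries, so their differences are uncertain. Hist1h2bb, for example, was at 1.0 and then 1.1 RPKM in wild type and at 0.4 and then 1.4 RPKM in the ZnF1 mutant. With 1 library per genotype and day, none of these differences between genotypes was tested.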

How the results depend on the processing

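limma called 0 genes in either direction in the reported fit and in all 14 alternatives, with a smallest adjusted p between 0.0981 and 1 in the alternatives. The genotype pairs the libraries, and with no replicate block for it, 290 genes higher and 24 lower had an unadjusted p below 0.05, against 1185 and 446 with it. Those lower numbered 809 after quantile scaling, 884 after median ratio scaling, 708 after GC correction and 745 after GC and length correction, and length correction gave 771 higher and 690 lower (the GC corrections were chosen after seeing the data). GC correction left 917 higher, and GC and length correction 792. Leaving out 1 genotype gave 499 to 1371 higher and 184 to 489 lower: without wild type 704 and 184, without the ZnF1 mutant 499 and 352.

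With a pseudocount of 0.1, 51 genes were 1.5-fold higher and 9 lower in all 3 genotypes, and 2-fold higher and lower genes numbered 95 and 178 in wild type, 225 and 19 for the ZnF1 mutant, 171 and 98 for the ZnF4 mutant. At a mean of 4 RPKM or more, 3 were 2-fold lower for the ZnF1 mutant, with 41 higher and 15 lower for the ZnF4 mutant. Genes 1.5-fold lower in all 3 numbered 3 after quantile and after median ratio scaling, 4 after length, 2 after GC and 5 after both corrections, which left 13 higher. In the ZnF1 mutant 12 were 2-fold lower after quantile scaling, 16 after length and 14 after both corrections, and 58, 71 and 46 were 2-fold higher after length, GC and both. In wild type 18 were 2-fold higher after length and 17 after both corrections.

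Under other pseudocounts, filters, scalings and row choices each length and GC rho stayed within 1 SD over the genotypes, but after GC correction the length rho of the ZnF4 mutant was -0.037, against -0.12. Of 104 genes named, 10 changed sign under 1 alternative, none past the test. Col1a1 was -0.032 after GC correction and Cd4 0.009 with a pseudocount of 0.1. Leaving out 1 genotype gave mean differences of -0.88 to 0.11 for Arpc5, -0.002 to 0.11 for Atp5b, -0.12 to 0.002 for Ebf1, -0.36 to 0.21 for Lyz2, -0.37 to 0.37 for Olfm1, -0.80 to 0.028 for Prss12, -0.52 to 1.22 for Snord82 and -0.23 to 0.061 for Tcf7. The cause was not tested. Values are rounded to 1 decimal and depth is unknown, so low genes are the least certain.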

Other observations

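Among metal and iron genes, 2 abundant transcripts were higher at day 28 in each genotype. Fth1, the heavy chain of the iron store ferritin, was at 397.8, 611.4 and 386.0 RPKM at day 21 in wild type, ZnF1 mutant and ZnF4 mutant, and at 572.5, 1038.9 and 531.4 RPKM at day 28 (mean 0.58 ± 0.09 SE, limma adjusted p = 0.173). Mt1, a metal-binding metallothionein, was at 275.6, 187.0 and 529.8 RPKM at day 21 and at 463.5, 280.3 and 666.3 RPKM at day 28. The list as a whole was less even. Of 12 tested genes, 3 were higher in all 3 genotypes and 1 lower in all 3. These counts were near the shares of all tested genes, 22.7% and 12.6%.

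Cholesterol and fatty acid synthesis genes had medians of 0.22, 0.07 and -0.03 in wild type, ZnF1 mutant and ZnF4 mutant. In the same order, 23, 20 and 10 of 25 genes were higher, beside 49.3%, 59.7% and 51.9% of all tested genes. The ZnF1 median was -0.01 after quantile scaling. Scd1, which desaturates fatty acids, was at 91.0, 66.3 and 128.5 RPKM at day 21 and at 127.4, 94.1 and 125.7 RPKM at day 28. Glycolysis genes were lower in the ZnF4 mutant for 16 of 18 genes (median -0.13), beside 42.5% of all tested genes. Their medians were 0.02 and 0.03 in wild type and the ZnF1 mutant, the latter -0.06 after quantile scaling. Igf2, an imprinted growth factor next to H19, was at 0.7, 6.1 and 247.2 RPKM at day 21 and at 0.2, 5.9 and 175.2 RPKM at day 28. Malat1, a nuclear noncoding RNA, was lower by 0.54, 0.15 and 0.45.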
